A study of Mus musculus with 12 samples.

Results

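The phagocyte NADPH oxidase makes superoxide, superoxide dismutases turn it into hydrogen peroxide, and catalase breaks that down. The expression of 8 such genes was followed in mouse bone marrow-derived macrophages given hepcidin or PBS. The genes were chosen by name as subunits of the phagocyte oxidase (Cybb, Cyba, Ncf1, Ncf4 and Rac2) or as detoxifying enzymes (Sod1, Sod2 and Cat). Earlier results of these data were known when they were chosen. Each was represented by 1 probe set among the 24675 named genes of the deposited array table, so 8 of 8 were measured. Hepcidin is the peptide hormone that binds the iron exporter ferroportin and causes its degradation.

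The 12 arrays fall into 4 groups of 3, PBS 1 h, hepcidin 1 h, PBS 3 h and hepcidin 3 h. All 4 groups were wild-type cells from mice 8 to 10 weeks old, of unstated strain, grown for 7 days with L cell-conditioned medium as the source of M-CSF. Every well was moved to DMEM alone for 1 h before hepcidin or PBS was added, so the controls had also lost serum and M-CSF. The hepcidin dose is given as 1 µg/ml in the growth protocol and as 10 µg/ml in the treatment protocol. No label says that the replicates of a group came from separate mice or cultures, and the p-values then reflect no more than array-to-array spread, possibly technical.

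In resting phagocytes the oxidase is disassembled. Cybb (gp91phox, the catalytic core) and Cyba (p22phox, its partner) form flavocytochrome b558 in membranes. The cytosolic subunits, p47phox (Ncf1) and p40phox (Ncf4) among them, and the small GTPase Rac2 join it on activation, and the complex then passes electrons from NADPH to oxygen. Superoxide dismutases turn superoxide into hydrogen peroxide, Sod1 in the cytosol with copper and zinc and Sod2 in mitochondria with manganese. Catalase breaks hydrogen peroxide down to water and oxygen. Sod2 is a known target of NF-kB, and PU.1, an ETS factor, is a known activator of oxidase genes in myeloid cells.

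Promoter windows are shown for 3 genes that bear on the results below, Sod2, whose expression changed most, Cybb, which changed less, and Cat, which stayed nearly level. Each window runs from 250 bases before to 50 bases after the gene start, 5′ to 3′ on the gene's strand, from RefSeq with build GRCm38.p6. Capitals mark matches, on either strand, to the NF-kB consensus, the AP-1 site TGANTCA and GAGGAA, a form of the ETS site. The windows are chr17:13007589-13007888 on the plus strand for Sod2, chrX:9469275-9469574 on the minus strand for Cybb and chr2:103485104-103485403 on the minus strand for Cat.
Sod2: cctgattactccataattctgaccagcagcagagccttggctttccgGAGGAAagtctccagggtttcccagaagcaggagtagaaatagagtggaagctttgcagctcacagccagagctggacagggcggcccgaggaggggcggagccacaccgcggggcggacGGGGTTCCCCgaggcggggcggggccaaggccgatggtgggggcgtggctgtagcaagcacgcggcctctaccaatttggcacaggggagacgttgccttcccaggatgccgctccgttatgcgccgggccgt
Cybb: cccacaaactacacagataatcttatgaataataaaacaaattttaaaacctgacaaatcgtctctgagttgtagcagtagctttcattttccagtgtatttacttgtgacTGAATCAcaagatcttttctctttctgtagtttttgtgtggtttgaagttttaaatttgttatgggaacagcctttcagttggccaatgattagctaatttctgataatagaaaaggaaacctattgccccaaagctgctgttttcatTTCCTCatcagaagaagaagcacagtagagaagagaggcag
Cat: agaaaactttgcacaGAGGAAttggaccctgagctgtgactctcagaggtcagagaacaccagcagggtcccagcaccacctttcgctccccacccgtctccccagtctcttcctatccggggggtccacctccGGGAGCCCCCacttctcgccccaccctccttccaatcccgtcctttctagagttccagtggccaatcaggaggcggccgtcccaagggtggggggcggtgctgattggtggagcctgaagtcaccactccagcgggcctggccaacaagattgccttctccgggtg

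Sod2 had 1 match to the NF-kB consensus at bases 168 to 177 of its window and 1 GAGGAA at bases 48 to 53. Cybb had 1 AP-1 match at bases 112 to 118 and, on the opposite strand, 1 GAGGAA at bases 260 to 265. Cat also had 1 NF-kB consensus match, at bases 135 to 144, and 1 GAGGAA at bases 16 to 21. Of 32851 mouse promoter windows of this length, 8.46% held the NF-kB consensus, 7.81% the AP-1 site and 28.3% GAGGAA. Of the 8 genes, 6 were matched in the promoter table, and Ncf4 and Rac2 were not. The windows of Cyba, Ncf1 and Sod1 held none of these 3 motifs as written, and other forms of an ETS site were not searched. The GC box GGGCGG was present in 35.7% of windows. It had 4 sites in Sod2, 4 in Sod1, 2 in Cyba, 1 in Ncf1, 1 in Cat and none in Cybb. Some of the Sod1 sites overlapped each other. The antioxidant response core TGACNNNGC, present in 12.4% of windows, was found only in Sod1 among the 6. No match overlapped a match to another motif. GC content was 64.3% in the Sod2 window and 35.3% in that of Cybb, against a median of 52.7%. A match is a description of these letters and shows no binding.

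Values are log2 expression as deposited, and levels of different genes are not compared because each probe set has its own scale. The median of an array lay between 4.84 and 4.94. Arrays of a group correlated with r between 0.994 and 0.997 across probe sets, and the number of arrays limits the precision. All 10 measured macrophage markers, among them Csf1r and Adgre1, lay above the array median on every array, with a mean level between 10.8 and 10.9 in every group. Of 14 neutrophil and granulocyte precursor markers 3, Elane, Mmp8 and Csf3r, did so, and S100a8, S100a9 and Ly6g did not. The mean level of that list lay between 4.82 and 4.94 in PBS 1 h, 4.84 and 4.99 in hepcidin 1 h, 4.68 and 4.79 in PBS 3 h, and 4.84 and 4.87 in hepcidin 3 h. In limma 0 of the 14 passed between hepcidin and PBS at either time, with 1 at an unadjusted p under 0.05 at 1 h, against 6.82% of all genes, and 4 at 3 h, against 16.9%. At 3 h the log2 changes of the 14 went both ways, from -0.42 to 0.65, with a median of 0.06, beside 0.016 over all genes. Neutrophils carry the same oxidase, and the part of these marker changes in the results below was not tested. No lymphocyte, dendritic cell or erythroid marker measured lay above the median on every array, and of 8 fibroblast markers Col1a1 and Col1a2 did. In bulk RNA a change in the share of a cell type and a change per cell cannot be told apart.

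**Figure D1:**
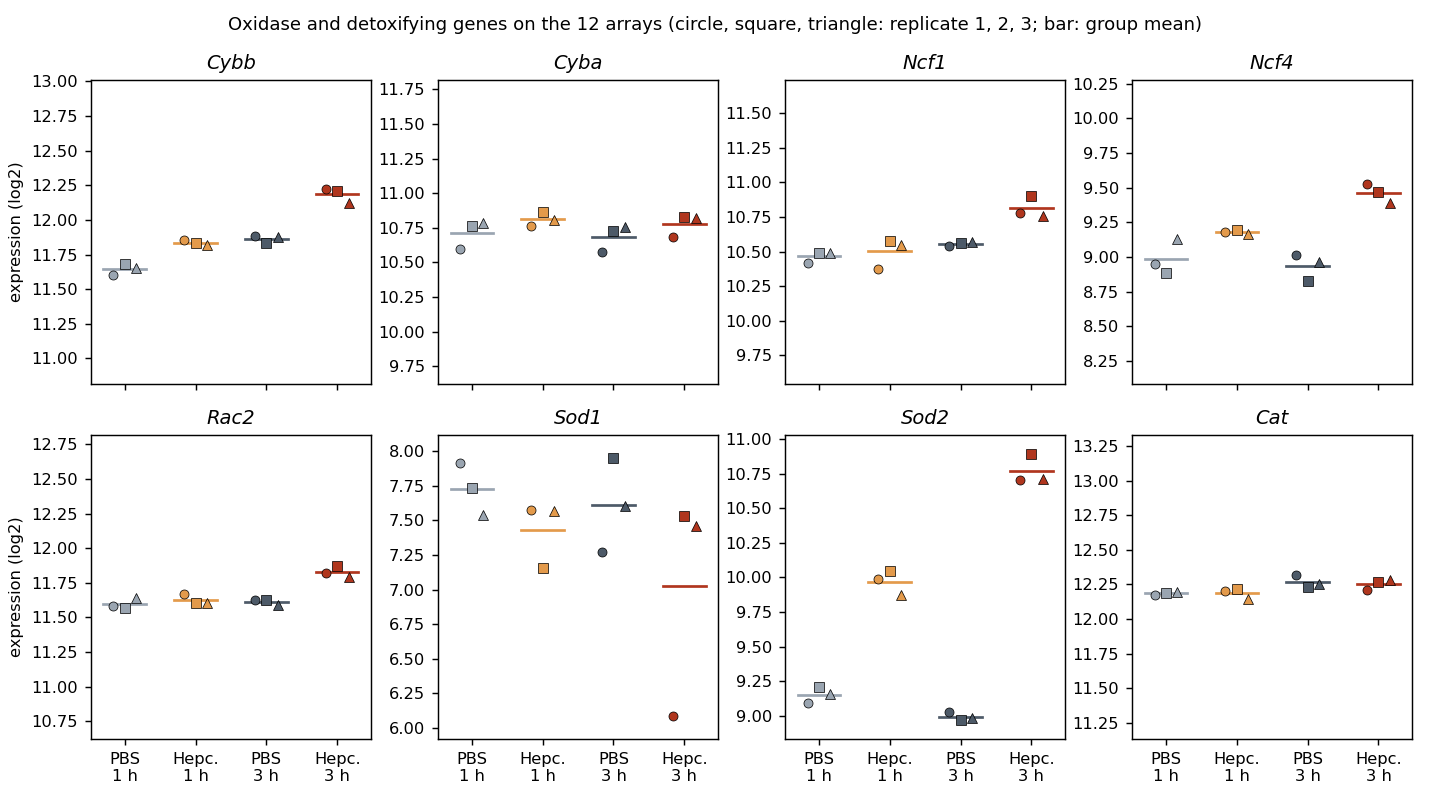
Log2 expression (y axis, each panel spanning the same number of log2 units) of the 8 genes on each array, by group (x axis), with the group mean as a bar. Sod2 stands higher in both hepcidin groups, Cybb, Ncf1, Ncf4 and Rac2 stand higher in hepcidin 3 h, and the 3 arrays of hepcidin 3 h are spread widely for Sod1.

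Sod2, the mitochondrial manganese superoxide dismutase (Entrez gene 20656), rose within 1 h of hepcidin and rose further by 3 h. Its log2 expression on the 3 PBS arrays of 1 h was 9.09, 9.21 and 9.16, and on the 3 hepcidin arrays 9.99, 10.05 and 9.87. At 3 h it was 9.03, 8.97 and 8.98 with PBS, and 10.71, 10.89 and 10.71 with hepcidin. Every hepcidin array lay above every PBS array at both times, and every hepcidin array of 3 h above every one of 1 h. The change was 1.76-fold at 1 h (log2 change 0.82, SE 0.07, 95% interval 0.65 to 0.98, limma adjusted p = 6.87e-05). At 3 h it was 3.42-fold (log2 change 1.77, SE 0.07, 95% interval 1.61 to 1.94, limma adjusted p = 4.01e-08). By size it ranked 75 among the 130 genes that rose at 1 h and 42 among the 692 that rose at 3 h. The effect at 3 h exceeded that at 1 h by 0.96 on the log2 scale (SE 0.105, limma adjusted p = 0.00115). In the PBS cultures Sod2 differed by -0.16 between 1 h and 3 h (adjusted p = 0.478), with 3 h arrays all below 1 h arrays. Its call at 1 h, at 3 h and for the difference held under every alternative tried, with log2 changes from 0.78 to 0.86 at 1 h and from 1.71 to 1.80 at 3 h.

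Sod2 was the 1 gene of the 8 to pass at 1 h, where 0.527% of all genes were higher and 0.0324% lower. At 3 h 3 of the 8 rose, Sod2, Ncf4 and Cybb, and 0 fell, where 2.8% of all genes were higher and 2.53% lower. The median log2 change over the 8 genes was 0.07 at 1 h and 0.24 at 3 h, beside -0.0022 and 0.016 over all genes. Counted by arrays, 3 of the 8 genes (Cybb, Ncf4 and Sod2) did not overlap between hepcidin and PBS at 1 h, against 12.3% of all genes. At 3 h 5 of the 8 (Cybb, Ncf1, Ncf4, Rac2 and Sod2) did not, against 21.7%. All 5 were higher with hepcidin. Between the PBS groups, with no hepcidin, 4 of the 8 did not overlap, against 17.7% of all genes, with Cybb, Ncf1 and Cat higher and Sod2 lower at 3 h.

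**Figure D2:**
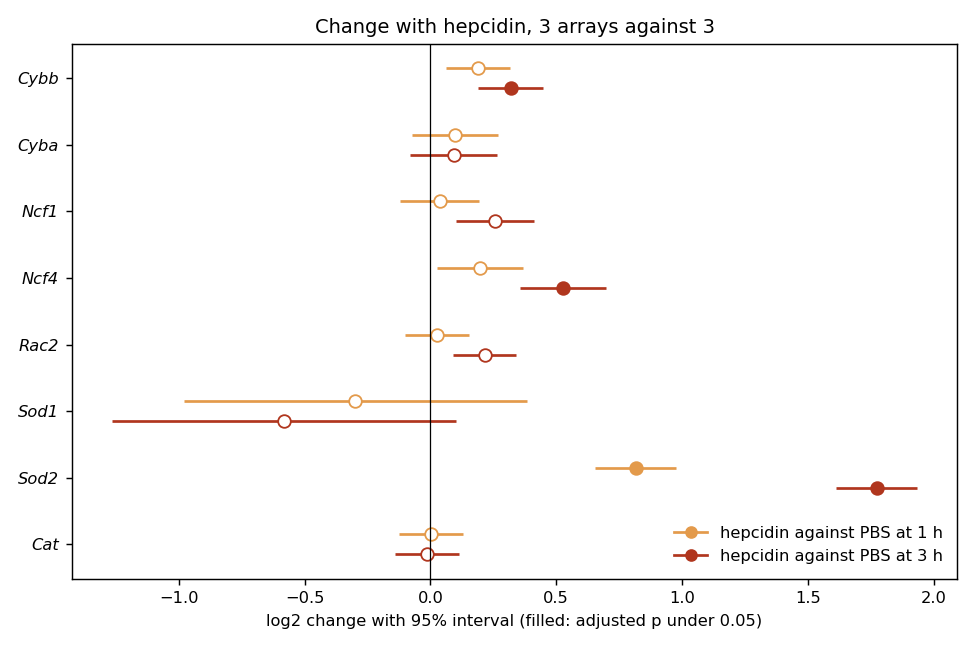
Log2 change with hepcidin against PBS (x axis, point with 95% interval from limma, n = 3 arrays in each group) for the 8 genes (y axis) at 1 h and 3 h, filled where the adjusted p was under 0.05. Sod2 is filled at both times, at 0.82 and 1.77, Cybb and Ncf4 at 3 h, and the intervals of Sod1 are the widest.

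Of the membrane subunits, Cybb rose at 3 h and Cyba did not pass at either time. Cybb (Entrez gene 13058) stood at 11.60, 11.68 and 11.66 with PBS at 1 h and at 11.85, 11.83 and 11.82 with hepcidin. At 3 h the PBS arrays read 11.89, 11.83 and 11.88 and the hepcidin arrays 12.22, 12.21 and 12.12. The groups did not overlap at either time, but PBS at 3 h had reached the level of hepcidin at 1 h. The log2 change was 0.32 at 3 h, or 1.25-fold (SE 0.06, 95% interval 0.19 to 0.45, limma adjusted p = 0.0064). At 1 h it was 0.19 (SE 0.06, 95% interval 0.06 to 0.32, adjusted p = 0.421). The difference between these effects, 0.13, did not pass (adjusted p = 0.663). The call at 3 h was lost when only the groups compared were fitted (adjusted p = 0.057), and at 1 h Cybb passed with a trended and robust prior (adjusted p = 0.026).

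Cyba (Entrez gene 13057) read 10.59, 10.76 and 10.79 with PBS at 1 h and 10.77, 10.87 and 10.81 with hepcidin. At 3 h it read 10.57, 10.73 and 10.75 with PBS and 10.68, 10.82 and 10.82 with hepcidin. The groups overlapped at both times, and the lowest array of each of the 4 groups was the one numbered 1. Its log2 change was 0.10 at 1 h (95% interval -0.07 to 0.27) and 0.09 at 3 h (95% interval -0.08 to 0.26).

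Among the cytosolic subunits Ncf4 rose most. Ncf4 (Entrez gene 17972), whose product p40phox binds phosphatidylinositol 3-phosphate on phagosomes, read 8.95, 8.89 and 9.13 with PBS at 1 h and 9.18, 9.20 and 9.17 with hepcidin. At 3 h it read 9.02, 8.83 and 8.96 with PBS and 9.53, 9.47 and 9.39 with hepcidin. Hepcidin arrays lay above PBS arrays at both times, by a narrow gap at 1 h and a wide gap at 3 h. The log2 change at 3 h was 0.53, or 1.44-fold (SE 0.08, 95% interval 0.35 to 0.70, limma adjusted p = 0.00136). At 1 h it was 0.20 (SE 0.08, 95% interval 0.02 to 0.37, adjusted p = 0.666), and the difference of 0.33 between the effects did not pass (adjusted p = 0.284). The call at 3 h held whichever array was left out.

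Ncf1 (Entrez gene 17969), the organizer subunit p47phox, did not pass at either time. At 1 h its values were 10.42, 10.49 and 10.49 with PBS and 10.38, 10.58 and 10.55 with hepcidin. At 3 h they were 10.54, 10.56 and 10.57 with PBS and 10.78, 10.90 and 10.76 with hepcidin. The groups overlapped at 1 h and were apart at 3 h. The log2 change was 0.04 at 1 h (95% interval -0.12 to 0.19) and 0.26 at 3 h (SE 0.07, 95% interval 0.10 to 0.41, limma adjusted p = 0.0594). It passed at 3 h without hepcidin 1 h replicate 1 (adjusted p = 0.0395) and under several of the alternatives given in the closing section.

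Rac2 (Entrez gene 19354), the GTPase of the oxidase in blood cells, followed a similar course. Its values were 11.58, 11.57 and 11.64 with PBS and 11.67, 11.61 and 11.60 with hepcidin at 1 h, and the groups overlapped. At 3 h they were 11.63, 11.63 and 11.59 with PBS and 11.82, 11.87 and 11.79 with hepcidin, and the groups were apart. The log2 change was 0.03 at 1 h (95% interval -0.10 to 0.15) and 0.22 at 3 h (SE 0.06, 95% interval 0.09 to 0.34, limma adjusted p = 0.0542). The related GTPase gene Rac1, which also serves the oxidase, changed by 0.03 at 1 h and 0.05 at 3 h (95% interval -0.09 to 0.19, adjusted p = 0.771). The median log2 change over the 5 oxidase subunits was 0.10 at 1 h and 0.26 at 3 h, beside -0.0022 and 0.016 over all genes. At 1 h 0 of the 5 passed, where 0.527% of all genes were higher, and the intervals of Cyba, Ncf1 and Rac2 included 0. At 3 h 2 of the 5 rose and 0 fell, where 2.8% of all genes were higher and 2.53% lower.

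Sod1 (Entrez gene 20655), the copper and zinc enzyme, had the widest spread within each of the 4 groups among the 8 genes. Its values were 7.91, 7.73 and 7.54 with PBS and 7.57, 7.16 and 7.56 with hepcidin at 1 h. At 3 h they were 7.27, 7.95 and 7.60 with PBS and 6.09, 7.53 and 7.46 with hepcidin. The groups overlapped at both times, and hepcidin 3 h replicate 1 lay far below the other arrays. The log2 change was -0.30 at 1 h (SE 0.31, 95% interval -0.98 to 0.39) and -0.58 at 3 h (SE 0.31, 95% interval -1.27 to 0.10, limma adjusted p = 0.39). Without hepcidin 3 h replicate 1 the change at 3 h was -0.11 (adjusted p = 0.802). Between the hepcidin groups it changed by -0.41 (adjusted p = 0.584), and by 0.06 without that array.

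Cat (Entrez gene 12359), the catalase gene, changed little with hepcidin at either time. Its PBS arrays of 3 h all lay above those of 1 h, with a log2 change of 0.08 (limma adjusted p = 0.733). It read 12.17, 12.19 and 12.19 with PBS and 12.20, 12.21 and 12.15 with hepcidin at 1 h, and 12.32, 12.23 and 12.25 with PBS and 12.21, 12.27 and 12.28 with hepcidin at 3 h. Hepcidin and PBS arrays overlapped at both times. Its log2 change was 0.0022 at 1 h (95% interval -0.13 to 0.13) and -0.01 at 3 h (95% interval -0.14 to 0.12, limma adjusted p = 0.948).

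The order of the 4 group means differed between genes. For Sod2 it ran from PBS 3 h through PBS 1 h and hepcidin 1 h to hepcidin 3 h, and no neighbouring groups overlapped. For Ncf4 the order was the same, but the 2 PBS groups overlapped. For Cybb it ran from PBS 1 h through hepcidin 1 h and PBS 3 h to hepcidin 3 h, and the middle groups overlapped. For Ncf1 and Rac2 hepcidin 3 h alone stood apart, and the other 3 groups overlapped with their neighbours. For Cyba, Sod1 and Cat every neighbouring pair of groups overlapped.

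Between the PBS groups limma called 0 of the 8 genes, against 0.45% of all genes in either direction. At an unadjusted p under 0.05, which 10.6% of all genes met, there was 1, Cybb, higher at 3 h by 0.22 (SE 0.06, adjusted p = 0.161). Cybb passed there with an unmoderated linear model (adjusted p = 0.0351), with a trended and robust prior (0.0103) and among genes above the median mean (0.0482). Between hepcidin at 3 h and at 1 h 3 of the 8 were higher, Sod2 by 0.80, Cybb by 0.35 and Ncf1 by 0.31, against 2.44% of all genes (limma adjusted p = 6.32e-05, 0.00418 and 0.0252). This comparison shares arrays with both comparisons against PBS. The call of Ncf1 was lost with hepcidin replicate 1 (adjusted p = 0.0842) or 3 (0.0529) of 1 h, or replicate 2 (0.0831) of hepcidin 3 h, left out, and with median centring (0.088). Ncf4, higher by 0.28, did not pass (0.0676) except without PBS 1 h replicate 3 (0.0473) and under some alternatives. With only the groups compared in the fit, the call of Cybb was lost (0.0529) and so was that of Ncf1 (0.141). In the test of the difference between the 2 hepcidin effects 1 of the 8, Sod2, was larger at 3 h, against 0.523% of all genes.

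The wider pathway was described by 4 lists of related genes. Among 9 other NADPH oxidase genes Nox1 alone rose, at both times, where 0.527% of all genes were higher at 1 h and 2.8% at 3 h. Nox1 (Entrez gene 237038) encodes a catalytic homologue of gp91phox best known from colon epithelium and smooth muscle. It read 5.36, 5.14 and 5.33 with PBS and 6.31, 6.15 and 6.08 with hepcidin at 1 h. At 3 h it read 5.56, 5.19 and 5.30 with PBS and 7.74, 7.70 and 7.61 with hepcidin. The groups were far apart at 3 h. The PBS values lay only a little above the array median. The log2 change was 0.90 at 1 h (SE 0.10, limma adjusted p = 0.000522) and 2.33 at 3 h (SE 0.10, limma adjusted p = 5.83e-08). Its calls held under every alternative tried. With PBS values this near the array median, the size of the change is less certain than its direction. The group means of its partner genes lay below the median of every array, from 4.72 to 4.82 for Noxo1, the organizer, and from 3.61 to 3.76 for Noxa1, the activator, so their changes cannot be read at this signal. The group means of the remaining genes of this list also lay below the median of every array, so that Nox1 alone rose says little about them. The median over the 9 genes was 0.04 at 3 h.

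The list of oxidase assembly and regulation held 17 measured genes, and Arhgdia and Pak1 were not analysed here. At 1 h 0 of the 17 passed in limma, with 0 at an unadjusted p under 0.05 as well, against 6.82% of all genes. At 3 h 2 rose and 1 fell, with a median of 0.04, beside 2.8% of all genes higher and 2.53% lower. At an unadjusted p under 0.05 in limma, in either direction, there were 7 of the 17, against 16.9% of all genes. Hvcn1, the proton channel that balances the charge moved by the oxidase, rose by 0.31 (SE 0.07, limma adjusted p = 0.0161). Prkcd, a kinase that phosphorylates p47phox, rose by 0.29 (adjusted p = 0.0162), and Pik3cd, a catalytic phosphoinositide 3-kinase subunit, fell by 0.28 (adjusted p = 0.0408). These calls were near the threshold. The call of Hvcn1 was lost with PBS replicate 1 (0.0533) or 3 (0.0672) of 3 h left out, and with replicate 3 of hepcidin 3 h left out (0.0664). That of Prkcd was lost with replicate 2 of PBS 3 h (0.0817) or replicate 2 of hepcidin 3 h (0.0551) left out. With only the groups compared in the fit, neither passed (0.0948 and 0.103), and Prkcd did not with median centring (0.0546). Pik3cd kept its call only without hepcidin 1 h replicate 1 and lost it without each of the 11 other arrays (0.0506 to 0.161).

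Of 22 other detoxifying genes 20 were measured, and Prdx5 and Prdx6 were not analysed here. At 1 h 0 of the 20 passed, with 0 at an unadjusted p under 0.05, against 6.82% of all genes. At 3 h 3 rose and 0 fell, with a median of 0.07, beside the same 2.8% and 2.53% of all genes. At an unadjusted p under 0.05 in limma, in either direction, there were 7 of the 20, against 16.9% of all genes. Txnrd1, the cytosolic thioredoxin reductase, rose by 0.54 (SE 0.07, limma adjusted p = 0.000231). Srxn1, which restores overoxidized peroxiredoxins, rose by 0.38 (adjusted p = 0.0186), and the peroxiredoxin gene Prdx1 by 0.28 (adjusted p = 0.043). Srxn1 lost its call with PBS replicate 2 (0.0803) or 3 (0.0657), or hepcidin replicate 2 (0.0547) or 3 (0.0722), of 3 h left out. Prdx1 kept its call only without PBS 1 h replicate 3 and lost it without each of the 11 other arrays (0.0527 to 0.152), with median centring (0.128), with array weights (0.0638) and with only the groups compared (0.13). The secreted dismutase gene Sod3 changed by -0.06 at 3 h, and Ccs, the copper chaperone of Sod1, by 0.07.

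Of 16 genes that supply NADPH 15 were measured, and G6pdx was not analysed here. At 1 h 0 passed in limma, with 1, Nadk, at an unadjusted p under 0.05, against 6.82% of all genes. At 3 h 1 rose and 1 fell, with a median of -0.05, against the same shares of all genes. At an unadjusted p under 0.05 in limma, in either direction, there were 5 of the 15, against 16.9% of all genes. Nadk, the cytosolic kinase that makes NADP from NAD, read 9.54, 9.50 and 9.45 with PBS and 10.34, 10.34 and 10.28 with hepcidin at 3 h. The groups were far apart, at 1.77-fold (log2 change 0.82, SE 0.07, limma adjusted p = 1.35e-05), and the call held under every alternative tried. At 1 h it read 9.43, 9.39 and 9.38 with PBS and 9.78, 9.70 and 9.55 with hepcidin, also apart. The change there was 0.28 (adjusted p = 0.181), and the difference between its effects was 0.54 (adjusted p = 0.0214). That difference kept its call with replicate 1 of PBS 3 h, replicate 1 of hepcidin 1 h, or replicate 1 or 3 of hepcidin 3 h left out. It lost it without each of the 8 other arrays (0.0513 to 0.0702) and with median centring (0.0835). G6pd2 fell by 0.55 (adjusted p = 0.0231), at levels from 4.43 to 5.28 around the array median. It is a retrotransposed copy of G6pdx, so its probe set may read both. Its call was lost with PBS replicate 1 (0.0927) or 3 (0.0565), or hepcidin replicate 2 (0.0732) or 3 (0.1), of 3 h left out, and with an unmoderated model (0.0716).

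**Figure D3:**
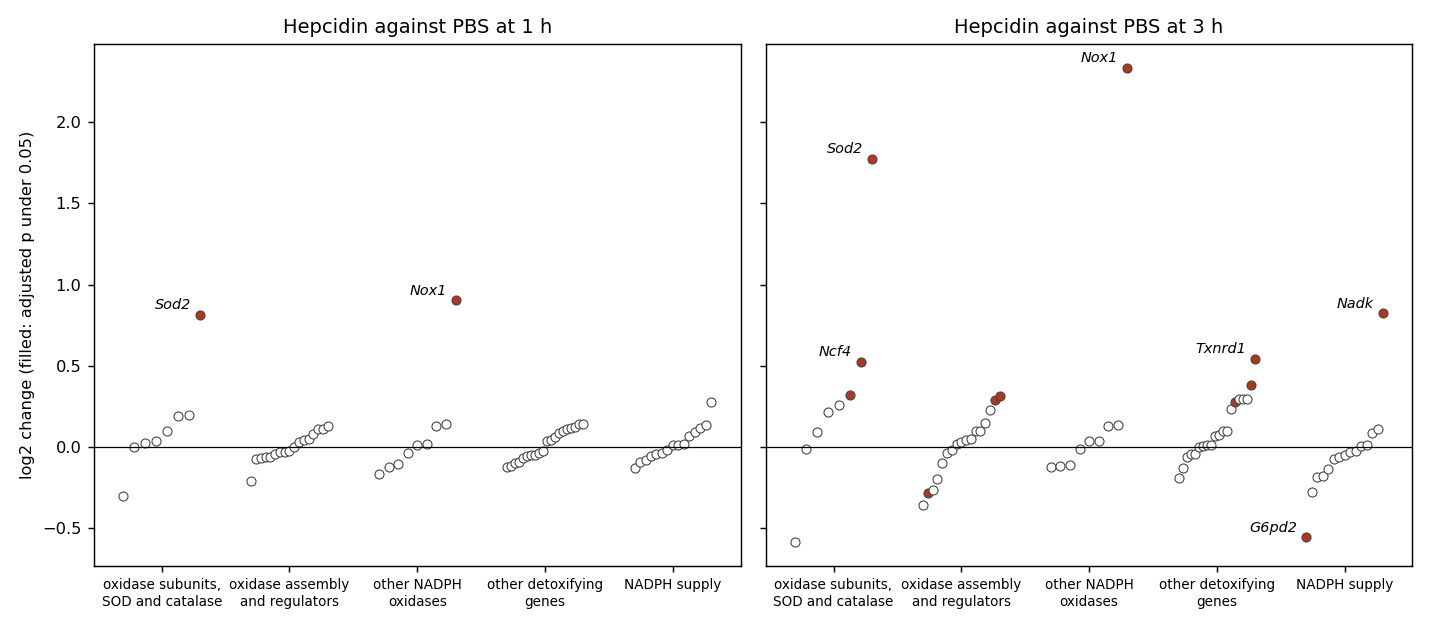
Log2 change with hepcidin against PBS (y axis) of each measured gene of the 8 and of the 4 wider lists (x axis, genes in order of their change) at 1 h (left) and 3 h (right), filled where the limma adjusted p was under 0.05. At 1 h Sod2 and Nox1 are filled, and at 3 h Nox1 at 2.33, Sod2 at 1.77 and Nadk at 0.82 stand highest.

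For the 4 of the 8 genes that passed in some comparison, the genes with the nearest course over the 12 arrays were found among 11030 named genes above the median mean. Likeness was the root mean square difference between the values of both genes on the 12 arrays, each centred on its own mean. Nearest to Sod2 were Tnip1 (0.128 log2 units), Sdc4 (0.13), Tnfaip2 (0.147) and Traf1 (0.149), against an SD of 0.743 for Sod2 itself. Each of these 4 rose at both times, by log2 changes from 0.64 to 1.00 at 1 h and from 1.55 to 1.80 at 3 h. Their rise follows from how they were chosen and is no separate result. Nearest to Cybb were Zdhhc18 (0.0475), Mtmr6 (0.0567), Arhgef2 (0.058) and Samd4b (0.0597). Nearest to Ncf1 were Zfp335 (0.0467), Rhog (0.0502), Tapbp (0.0563) and Dus2 (0.0576). Nearest to Ncf4 were Zmiz2 (0.0786), Nfe2l1 (0.0794), Hivep1 (0.0803) and Igsf6 (0.0811). For Cybb, Ncf1 and Ncf4 the distances stand beside SDs of 0.204, 0.154 and 0.228.

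**Figure D4:**
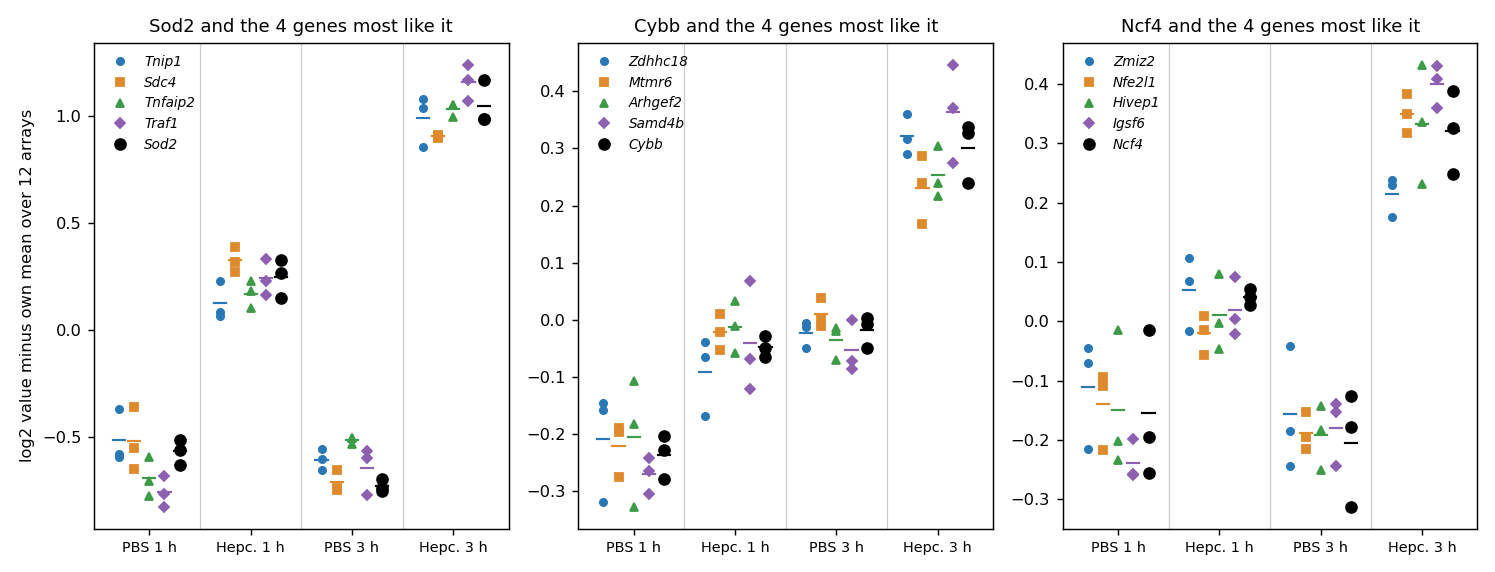
Log2 value minus the gene's own mean over the 12 arrays (y axis) by group (x axis) for Sod2, Cybb and Ncf4 (black circles) and the 4 genes nearest to each, with 1 point for each array and the group mean as a short bar. Y axes differ between the panels. Sod2 and its 4 neighbours are higher in hepcidin 3 h than in hepcidin 1 h and lowest in both PBS groups.

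Among the macrophage markers, Spi1, which encodes PU.1, rose at 3 h by 0.30 (SE 0.06, limma adjusted p = 0.00707). Cd14 rose by 0.80 and Mertk fell by 1.08, and the other 7 of the 10 did not pass. The part of these marker changes in the rise of Cybb and Ncf4 was not tested.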

How the data were processed

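Total RNA extracted with Trizol was made into biotinylated cDNA with an Affymetrix whole-transcript kit, as the labels' protocols state. The authors deposited 1 value for each of 25429 probe sets on 12 arrays. RMA and Partek are the tools listed, without version or order, per the submitters' processing notes. The deposited values were taken as log2 because RMA returns log2. Log base, genome build and annotation are not given in the sources used here. With a platform annotation supplied for this work, 24675 probe sets with a single gene symbol were kept, 1 per gene. Where a gene had several, the one with the highest mean over all arrays was taken. The other 754 entered only the array medians, the correlations between arrays of a group and 1 alternative.

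Linear models were fitted with limma 3.58.1 under R 4.3.3, with eBayes moderation, over all named genes and all 4 groups, with 8 residual and 4.11 prior degrees of freedom, no filter on expression, for 5 comparisons. P-values were adjusted by Benjamini and Hochberg across genes within a comparison, and a gene passed at an adjusted p under 0.05. The median SE of a change was 0.0973. The procedure was tested on simulated data.

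The 8 genes and the lists were chosen with earlier results of these data known. Named are all 8 genes, Rac1, up to 4 genes of each list and direction past the threshold against PBS, and the 4 genes nearest to each of the 8 that passed in any comparison, among genes with a mean above the median gene and without predicted gene models and numbered clones. Markers are named as checks. The marker examples, Noxo1, Noxa1, Sod3 and Ccs, were added after their values were seen. No label ties a replicate number to an animal, litter or day, and the fit reported has no block. Alternatives were the block, other priors, gene sets, scalings, weights and call rules, and each array left out in turn.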

Additional observations from a re-analysis of the deposited data

Results flagged for a closer look

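The effect of hepcidin differed between the times in the test of the difference itself for 3 of the genes described. For Sod2 the effect at 3 h exceeded that at 1 h by 0.96 on the log2 scale (SE 0.105, limma adjusted p = 0.00115). For Nox1 it did so by 1.43 (SE 0.145, adjusted p = 0.000722). For Nadk it did so by 0.54 (SE 0.10, adjusted p = 0.0214), and this call was lost without each of 8 of the 12 arrays.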

How the results depend on the processing

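Of the 8 genes, 1 passed at 1 h in the main analysis and 2 did with a trended and robust prior. At 3 h 3 passed. The count was 5 with each of 5 settings (an unmoderated model, a prior both trended and robust, genes whose mean is above the median, a further quantile normalization, an adjusted p under 0.1), the additions being Ncf1 and Rac2 each time, and 1 with a fold minimum of 1.5. Between the PBS groups the count rose from 0 to 1 with an unmoderated model, the trended prior or the upper genes by mean. Between the hepcidin groups 3 passed. The count was 5 with the trended prior, the upper genes by mean, the further quantile normalization or an adjusted p under 0.1, and 1 with only the groups compared or a fold minimum of 1.5. Leaving out any array moved no count of the 8 by over 1.5 times. No call changed direction. With the replicate number as a block (replicate block), Ncf1 passed at 3 h (adjusted p = 0.0411), which made 4 of the 8, and no other call of the 8 changed, with Cybb at 0.01 and Ncf4 at 0.00251. Deviations from the group means correlated above 0.1 in 9 of 18 same-numbered pairs (median 0.105) and in 1 of 36 pairs of different numbers (median -0.037). All 12 arrays correlated best with arrays of their own number, a hint from the data and not from the design. The counts for the wider lists were recomputed by a choice made after seeing the data. At 3 h the assembly list went from 3 to 5 with the block, 1 with median centring and 0 with only the groups compared or the fold minimum, and to 1 without some single arrays. The detoxifying list went from 3 to 5 with the block, the trended prior, the upper genes by mean, the further quantile normalization or an adjusted p under 0.1, to 0 with the fold minimum, and to 1 without some single arrays. The NADPH supply list went from 2 to 1 with an unmoderated model or the fold minimum, and without some single arrays. It also counted 1 among the upper genes by mean, where G6pd2 was left out and so not tested. At 1 h this list went from 0 to 1 with the trended prior. The calls of Nox1 at both times and of Nadk at 3 h held throughout. Over all genes, 1316 passed at 3 h in the main analysis, 805 with only the groups compared, 480 with the fold minimum and 837 to 1287 with 1 array left out. Between the PBS groups 111 passed, 240 with the block, 319 with the trended prior, 333 among the upper genes by mean, 285 with array weights, 248 at an adjusted p under 0.1, 64 with median centring, 42 with the fold minimum, 7 with only the groups compared and 23 to 126 with 1 array left out. Between the hepcidin groups 1246 passed, 616 with only the groups compared, 407 with the fold minimum and 721 to 1178 with 1 array left out. For the difference of effects 254 passed, 433 with the trended prior, 412 among the upper genes by mean, 391 at an adjusted p under 0.1 and 141 to 234 with 1 array left out. The number of arrays, and for Nox1 and G6pd2 the signal near background, limits these values.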
